A study of Arabidopsis thaliana with 16 samples.

Results

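The genes described are 34 nuclear genes of Arabidopsis thaliana that encode subunits of the photosynthetic electron transport chain, out of 69252 annotated entries and 27442 nuclear protein-coding genes in the deposited tables. The rule that defines them is membership of these complexes and uses no measured value, although the set was drawn up with earlier results of these data known. They comprise 12 core subunits of photosystem I, the 4 antenna proteins LHCA1 to LHCA4, 10 subunits of photosystem II, 6 genes for electron carriers and their partners, and 2 subunits of the ATP synthase. All 34 were tested by the authors in both comparisons.

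The series concerns the regulation of DNA methylation by ultraviolet B (UV-B) light. Its groups used here are dd (white light), UV-B-exposed Col-0 and white-light Col-0, each with 2 RNA-seq samples that the labels call biological replicates. dd carries the drm1-2 and drm2-2 T-DNA insertions in the Columbia-0 background, and Col-0 is the wild type of that ecotype. Whole seedlings on sucrose-containing agar received 60 mE of white light and were frozen on day 10, and the UV-B group also received 1.5 mE at 315 nm from day 1. The dd samples given UV-B and the 8 bisulfite samples were not analysed here.

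In oxygenic photosynthesis, photosystem II takes electrons from water, the cytochrome b6f complex and plastocyanin pass them to photosystem I, and ferredoxin and its reductase deliver them to NADP. The proton gradient built on the way drives ATP synthase. Each complex is a mosaic of chloroplast-encoded subunits and nuclear-encoded ones. The nuclear genes are among the most strongly transcribed in green tissue, and light and chloroplast signals are known to control many of them.

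Values are the authors', read as FPKM from the layout of the tables, that is, fragment numbers relative to transcript length and to the library total, pooled to 1 value per group. No value per replicate and no read depth came with them, so replicate spread enters only through the authors' p-values, q-values (adjusted over all tested entries) and test statistic. A gene is counted as called at q under 0.05. For each gene the standard error that would give the authors' p under a normal distribution was also derived. It ranged from 0.136 to 0.153 on the log2 scale in dd and from 0.134 to 0.157 under UV-B, so 95% intervals reach about 0.3 on either side of a change. The authors' test statistic implies larger errors, with medians of 0.21 in dd and 0.21 under UV-B on the same scale. Seedlings were extracted whole, so fewer green cells and less RNA per green cell cannot be told apart. DRM2, the methyltransferase gene disrupted in dd, had 1.82 FPKM in dd and 7.09 FPKM in Col-0. DRM1, the other disrupted gene, had 0.319 FPKM in dd, was listed at 0 in Col-0 and was not tested, so it gives no check of the label.

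The 34 genes were abundant in all 3 groups. Together they held 10.2% of the summed FPKM of nuclear protein-coding genes in dd, 9.55% in the UV-B group and 9.99% in white-light Col-0. In Col-0 in white light, 22 of them ranked among the top 50 nuclear protein-coding genes, 29 among the top 100 and all 34 among the top 500. Differences in level among the genes were far wider than any difference between groups. PSBR (AT1G79040, TAIR10 chromosome 1, 29735952 to 29741304), a lumen-facing subunit needed for a stable oxygen-evolving complex, was highest at 7172 FPKM in dd, 7088 FPKM under UV-B and 7131 FPKM in Col-0 (here and below, levels given for all 3 groups take Col-0 from the dd table). PETE1 (AT1G76100, chromosome 1, 28553883 to 28554930), the minor plastocyanin gene, was lowest at 326 FPKM in dd, 300.05 FPKM under UV-B and 318 FPKM in Col-0. Locus ranges are those of the deposited tables, and those of 13 genes also hold other annotated entries, where reads could be shared. These 13 are PSAD2, PSAE1, PSAE2, PSAG, PSAH1, PSAH2, PSAN, LHCA2, LHCA4, PSBP1, PSBR, PSBY and LFNR1.

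**Figure D1:**
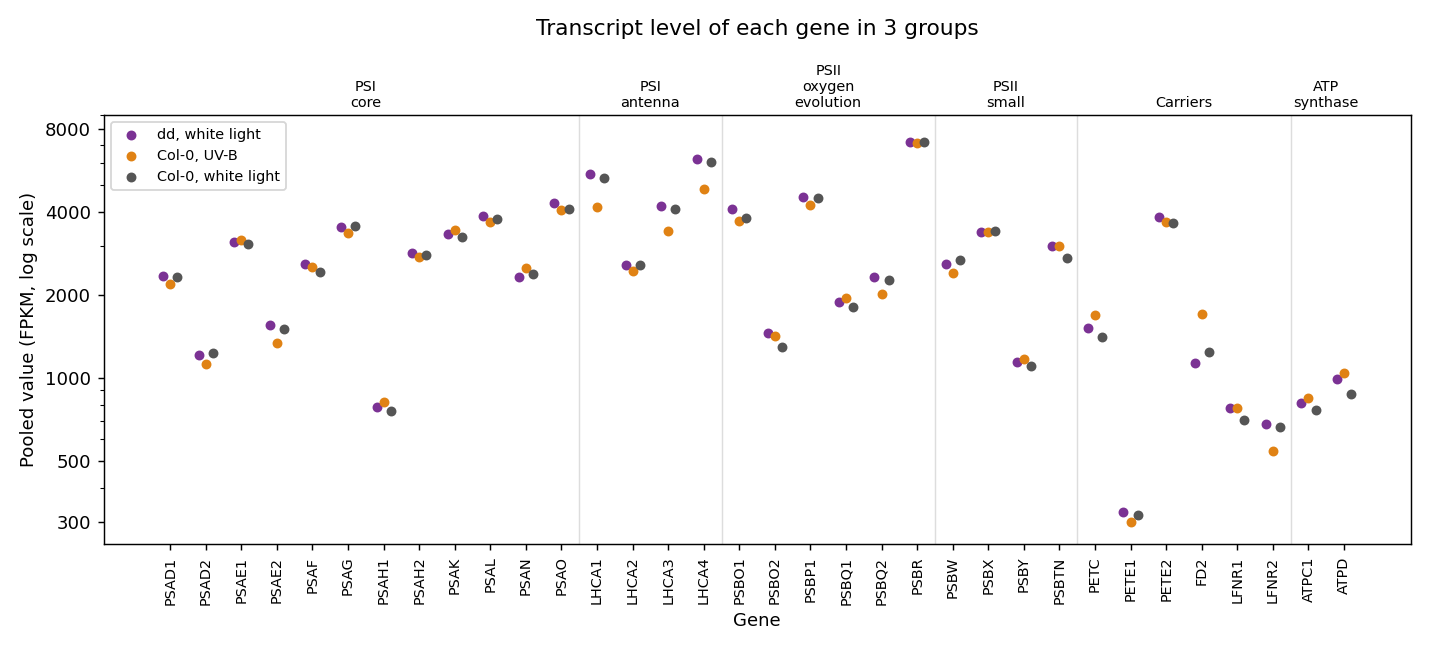
The plot of levels gives the authors' pooled FPKM (log axis) of each of the 34 genes, ordered by complex, in dd, the UV-B group and white-light Col-0 (value of the dd table), 1 point per group and no replicate spread. Points of a gene lie close together, while the genes span from PETE1 at 300.05 FPKM to PSBR at 7172 FPKM.

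Within photosystem I, the core subunits were unequal in level. PSAO, PSAL and PSAG led them, with 4301, 3854 and 3530 FPKM in dd and 4096, 3768 and 3556 FPKM in Col-0. PSAL and PSAO belong to the side of the complex where light-harvesting proteins of photosystem II dock, and PSAG helps to anchor the antenna belt. PSAF, the docking site for plastocyanin on the lumen side, had 2595 FPKM in dd, 2519 FPKM under UV-B and 2426 FPKM in Col-0. The antenna genes LHCA4 and LHCA1, whose proteins form a heterodimer, stood above every core subunit, with 6218 and 5475 FPKM in dd and 6050 and 5300 FPKM in Col-0.

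Photosystem II genes covered a similar range. PSBP1, an extrinsic protein of the oxygen-evolving complex, had 4535 FPKM in dd, 4217 FPKM under UV-B and 4502 FPKM in Col-0. PSBX and PSBTN, both small subunits, had 3376 and 3012 FPKM in dd and 3405 and 2710 FPKM in Col-0. PSBY, another small membrane subunit, was the lowest of this complex at 1145 FPKM in dd, 1166 FPKM under UV-B and 1101 FPKM in Col-0. Genes for ferredoxin, its reductases and the ATP synthase were among the lower ones. The ATP synthase genes ATPC1 (gamma subunit) and ATPD (delta subunit) stood at 811 and 991 FPKM in dd, at 844 and 1045 FPKM with UV-B, and at 766 and 877 FPKM in Col-0.

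The first comparison, dd against Col-0 in white light, addresses whether loss of both DRM methyltransferases alters these transcripts. None of the 34 genes was called in the authors' deposited table, against 0.421% of all 20416 tested entries. Among the 367 nuclear protein-coding genes at least as abundant as PETE1 in Col-0, 0.272% were called. No gene of the 34 had an unadjusted p under 0.05, compared with 3.71% of all tested entries. The smallest p among the 34 in the authors' deposited table was 0.221. At that background, a count of 0 among 34 is close to the share of all entries.

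By value, 27 of the 34 genes were higher in dd and 7 lower, beside 50.9% higher among all tested entries with values above 0. Among the 367 abundant genes, 63.2% were higher. The median log2 change was 0.04, against 0.00 for all tested entries and 0.02 for the abundant genes. In 30 of the 34 genes dd and Col-0 differed by less than 10%. The changes ran from -0.13 to 0.18 with an SD of 0.06 among genes, which is smaller than the error derived for any of them.

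The ATP synthase delta subunit gene ATPD (AT4G09650, chromosome 4, 6100714 to 6101864) had the highest change, with 991 FPKM in dd and 877 FPKM in Col-0. Its log2 change was 0.18, with an implied 95% interval from -0.11 to 0.46 (p = 0.221 and q = 0.999 in the authors' deposited table). PSBO2, the minor gene for the protein that stabilises the manganese cluster, followed with 1451 FPKM in dd and 1295 FPKM in Col-0, a log2 change of 0.16. PSBTN (0.15), LFNR1 (0.14) and PSBO1 (0.11) came next on the log2 scale. LFNR1 encodes a leaf ferredoxin-NADP reductase.

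Ferredoxin gene FD2 (AT1G60950, chromosome 1, 22444307 to 22445291) had the lowest change in dd, at 1136 FPKM against 1239 FPKM in Col-0. Its log2 change was -0.13, with an implied interval from -0.41 to 0.16 (p = 0.387 in the authors' deposited table). The other 6 genes with lower values were PSBW, PSAN, PSAD2, PSBX, PSAG and LHCA2, none by more than 0.05 on the log2 scale. Across all 34 genes the widest interval bounds were -0.41 and 0.46, or 0.752-fold and 1.38-fold. With errors from the authors' test statistic the widest bounds were -0.54 and 0.59, or 0.69-fold and 1.5-fold.

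**Figure D2:**
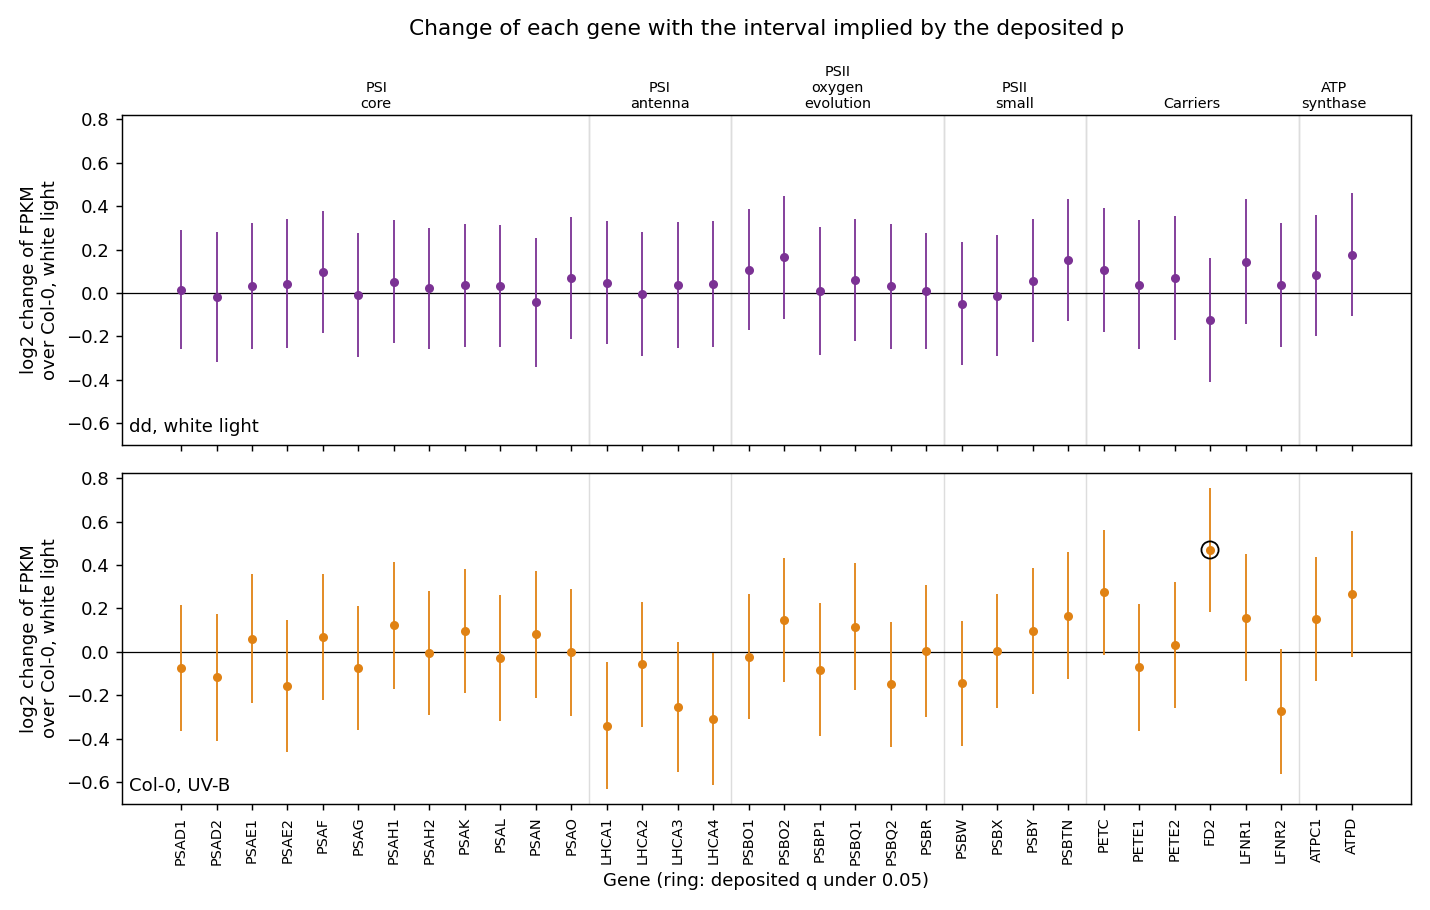
The plot of changes gives for each of the 34 genes the log2 change of FPKM in dd (upper panel) and in Col-0 under UV-B (lower panel) over Col-0 in white light, with lines for the 95% interval implied by the authors' p. All intervals in dd include 0, while under UV-B FD2 (ringed, q under 0.05) lies at 0.47 and LHCA1 and LHCA4 lie below 0.

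UV-B against white light in Col-0 is the second comparison, and it shares the Col-0 white-light samples with the first. FD2 rose, and the other 33 genes did not pass the threshold. FD2, the major ferredoxin of leaves, takes electrons from photosystem I. It had 1700.5 FPKM under UV-B and 1228 FPKM in white light, a 1.38-fold rise (log2 change 0.47, implied 95% interval 0.19 to 0.75, or 1.14-fold to 1.69-fold). In the authors' deposited table its p was 0.0012 and its q 0.0344, and at a q threshold of 0.01 or a required 1.5-fold change no gene of the 34 was called.

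This 1 call in 34 compares with 3.85% of all 20595 tested entries called in either direction and 2.04% called higher. Among the 367 abundant nuclear genes 6.27% were called, 8 higher and 15 lower. At an unadjusted p under 0.05 in the authors' deposited table, 3 of the 34 genes passed, FD2 higher and LHCA1 and LHCA4 lower, beside 11.7% of all tested entries. These shares are near or below the background. By value 17 genes lay above white light and 17 below. Among all tested entries with values above 0 in both groups, 10196 of 20390 were higher, and among the 367 abundant genes 58.0%. The median log2 change was 0.00 among the 34, 0.00 over all tested entries and 0.03 over the abundant genes. Differences among the 34 genes were wider than in dd, with an SD of 0.17 and changes from -0.34 to 0.47. In 22 of the 34 genes the values differed by less than 10%. The widest interval bounds were -0.63 and 0.75, and with errors from the authors' test statistic -0.76 and 0.88.

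As a group, the photosystem I antenna genes LHCA1 to LHCA4 had the lowest log2 changes, all 4 lower under UV-B and none called. LHCA1 (AT3G54890, chromosome 3, 20339504 to 20341176) had 4150 FPKM under UV-B and 5254 FPKM in white light. The log2 change was -0.34 with an implied interval from -0.63 to -0.05 (p = 0.022, q = 0.272 in the authors' deposited table). Its dimer partner LHCA4 (AT3G47470, chromosome 3, 17486490 to 17495033) had 4844 FPKM under UV-B and 5998 FPKM in white light, a log2 change of -0.31 (p = 0.0466, q = 0.412 in the authors' deposited table). With errors from the authors' test statistic, the intervals of both LHCA1 and LHCA4 included 0. LHCA3 had 3396 FPKM under UV-B and 4056 FPKM in white light, a log2 change of -0.26 that had a p of 0.0934 in the authors' deposited table. LHCA2, which pairs with LHCA3 in the complex, differed less, with 2445 FPKM under UV-B and 2546 FPKM in white light (log2 change -0.06). LHCA5 and LHCA6, related genes outside the set described, went the other way, with higher values under UV-B. LHCA5 had 257 FPKM under UV-B and 222 FPKM in white light, and LHCA6 had 126 and 112 FPKM. Their log2 changes were 0.21 and 0.17, and neither was called (q = 0.741 and 0.858 in the authors' deposited table). Summed over the 4 genes LHCA1 to LHCA4, 14836 FPKM under UV-B stood against 17855 FPKM in white light, a difference of -16.9%.

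Core genes of photosystem I showed no such difference in sum, with 30857 FPKM under UV-B and 30828 FPKM in white light. Of the 12 core genes 5 were higher and 7 lower by value, none was called, and their smallest q in the authors' deposited table was 0.898. Changes ran from -0.16 for PSAE2 to 0.12 for PSAH1 on the log2 scale. PSAE2 is a copy of the stromal subunit beside the ferredoxin docking site. PSAD1 and PSAD2, copies of the subunit that binds ferredoxin, had 2180 and 1119 FPKM under UV-B against 2296 and 1214 FPKM in white light. PSAK, which like PSAG sits at the antenna edge, had 3430 FPKM under UV-B and 3208 FPKM in white light. PSAN, on the lumen side near the plastocyanin site, had 2495 FPKM under UV-B and 2360 FPKM in white light. The differences of PSAD1, PSAD2, PSAK and PSAN were smaller than their implied errors. Values of PSAO and PSAH2 came within 1% of those in white light. Whether the antenna differed from the core was not tested.

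The 10 photosystem II genes summed to 30365 FPKM under UV-B and 30435 FPKM in white light. Their log2 changes ran from -0.15 to 0.17, with 6 higher and 4 lower by value and none called. PSBTN was highest at 3015 FPKM under UV-B against 2686 FPKM in white light (log2 change 0.17, q = 0.850 in the authors' deposited table). PSBQ2, an extrinsic subunit of the oxygen-evolving side, was lowest at 2020 FPKM under UV-B against 2242 FPKM in white light (log2 change -0.15). PSBW, a small subunit that stabilises the association of photosystem II with its antenna, lay beside it at -0.15. The manganese-stabilising genes PSBO1 and PSBO2 had log2 changes of -0.02 and 0.15, and PSBP1 had -0.08. PSBQ1 and PSBY had log2 changes of 0.11 and 0.10. PSBR and PSBX differed by less than 1%.

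Among carriers the log2 changes lay further apart than in either photosystem. PETC (AT4G03280, chromosome 4, 1440146 to 1441863), the Rieske iron-sulfur subunit of cytochrome b6f, had 1686 FPKM under UV-B and 1394 FPKM in white light. The log2 change was 0.27, with an implied interval from -0.02 to 0.56 (p = 0.0635, q = 0.483 in the authors' deposited table). The plastocyanin genes PETE2 and PETE1 had log2 changes of 0.03 and -0.07. LFNR2 (AT1G20020, chromosome 1, 6942625 to 6945091) had 542 FPKM under UV-B and 655 FPKM in white light, a log2 change of -0.27 (p = 0.0632, q = 0.482 in the authors' deposited table). LFNR1 had 777 FPKM under UV-B and 697 FPKM in white light, a log2 change of 0.16.

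Both ATP synthase genes had higher values under UV-B without passing the test. ATPD had 1045 FPKM under UV-B and 869 FPKM in white light, a log2 change of 0.27 (p = 0.0744, q = 0.522 in the authors' deposited table). ATPC1, the subunit through which the enzyme is redox-regulated, had 844 FPKM under UV-B and 759 FPKM in white light, a log2 change of 0.15.

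Of the 34 genes, 14 form 7 pairs of closely related copies, which allowed the division of transcript within each pair to be read. The most unequal pair was plastocyanin, where PETE1 held 7.89% of the pair's FPKM in dd, 7.53% under UV-B and 8.04% in Col-0. PSAH1 held 21.8% of its pair in dd, 22.9% under UV-B and 21.4% in Col-0. PSAD1, PSAE1 and PSBO1 were the major copies of theirs, with 65.9%, 66.7% and 73.8% in dd and 65.4%, 66.9% and 74.6% in Col-0. Between dd and Col-0 no share differed by more than 2 percentage points.

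Under UV-B the reductase pair moved most in its division. LFNR1 held 58.9% of the summed LFNR FPKM under UV-B, against 51.6% in white light, while the pair's sum was 1319 FPKM under UV-B and 1352 FPKM in white light. With UV-B, PSBQ1 held 49.04% of its pair, against 44.5% in white light. PSAE1 held 70.1% of its pair with UV-B, against 66.9% in white light. In each of these 3 pairs the copies lay on opposite sides of 0, with sums that differed by at most 0.04 on the log2 scale. This did not set them apart. Copies of the PSAH, PSBO and plastocyanin pairs also lay on opposite sides of 0, with sums that differed by 0.02. None of these differences between copies was tested, and the division rests on how reads were assigned between similar sequences, which the sources used here do not state.

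**Figure D3:**
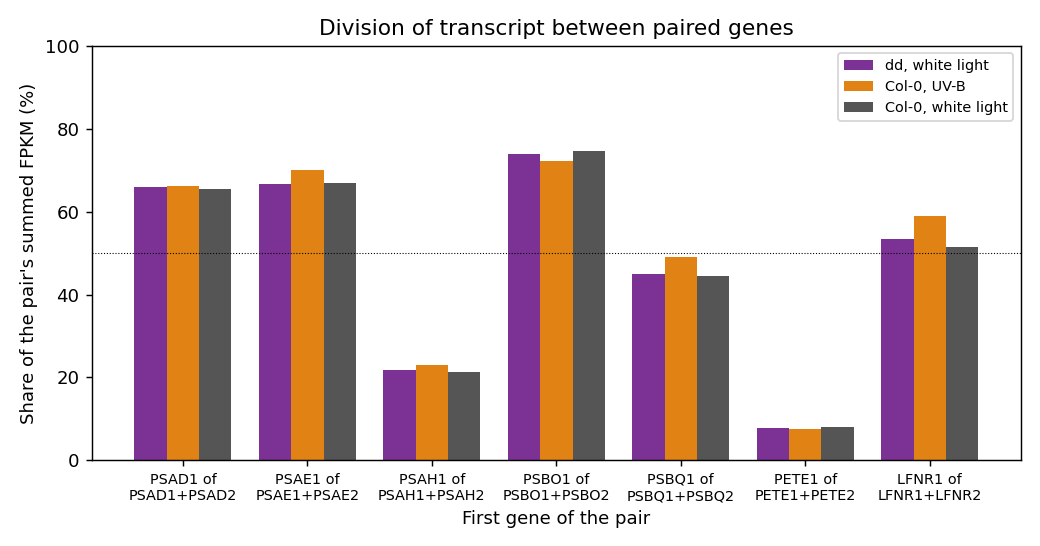
The bar plot of pairs gives the share (%) of a pair's summed FPKM held by the first gene named, for 7 pairs in dd, the UV-B group and white-light Col-0, with no replicate spread available. The dotted line marks equal division; LFNR1 stands at 53.4% in dd, 58.9% under UV-B and 51.6% in Col-0.

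Other genes of the same pathways were followed in lists of related function. Their counts stand against 3.85% of all tested entries called and 10196 of 20390 higher by value under UV-B, and against 0.421% called and 50.9% higher in dd; with 8 to 17 genes in a list, 1 call is not read as a result about the list. Of 17 further thylakoid genes tested, FD1 alone was called under UV-B, and none in dd. FD1 (AT1G10960), the minor leaf ferredoxin gene, rose 1.62-fold, with 753 FPKM under UV-B and 464 FPKM in white light (log2 change 0.70, q = 0.00249 in the authors' deposited table). FD1 and FD2 together summed to 2454 FPKM under UV-B and 1692 FPKM in white light, and FD2 held 69.3% of that sum under UV-B and 72.6% in white light. In dd, FD1 had 469 FPKM against 468 FPKM in Col-0. The sum over the 17 genes was 10563 FPKM under UV-B and 8800 FPKM in white light, with 15 of 17 higher by value. PSBS, the photosystem II protein of heat dissipation, had 1758 FPKM under UV-B and 1395 FPKM in white light without being called (p = 0.0239, q = 0.284 in the authors' deposited table). PSB28 and PETM, also not called, had smaller p there (0.00255 and 0.015, with q of 0.0617 and 0.217). Their log2 changes were 0.46 and 0.35.

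Subunits of the NADH dehydrogenase-like complex, which returns electrons from ferredoxin to the plastoquinone pool, included 1 call among 11 tested under UV-B and none in dd. PNSB2 rose, with 111 FPKM under UV-B and 76.5 FPKM in white light (log2 change 0.54, q = 0.0199 in the authors' deposited table). All 11 had higher values under UV-B, with a median log2 change of 0.27, and all 11 had higher values in dd, with a median of 0.12. Both changes are taken over the same Col-0 white-light samples, so these counts are not independent. None of 9 factors for assembly of the photosystems and cytochrome b6f was called in either comparison. The assembly gene furthest from 0 was HCF164, a thylakoid thioredoxin-like protein, at 97.6 FPKM under UV-B and 73.5 FPKM in white light (q = 0.204 in the authors' deposited table).

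Of 11 tested chlorophyll synthesis genes, HEMA1 was called under UV-B and none in dd. HEMA1, the glutamyl-tRNA reductase at the start of the pathway, rose with 209 FPKM under UV-B and 142 FPKM in white light (log2 change 0.56, q = 0.00819 in the authors' deposited table). Of 9 regulators, CGA1 and HYH rose under UV-B (3.85% of all tested entries were called) and none was called in dd (0.421% of all). CGA1, a GATA factor that promotes chloroplast development, had 10.9 FPKM under UV-B and 4.89 FPKM in white light (q = 0.00249 in the authors' deposited table). HYH, a bZIP factor related to HY5, had 162 FPKM under UV-B and 94.6 FPKM in white light (q = 0.00249 in the authors' deposited table). HY5 itself and the listed regulator GNC had higher values under UV-B without being called (log2 changes 0.48 and 0.33, q = 0.103 and 0.473 in the authors' deposited table). GLK1, which activates many photosystem genes, had 82 FPKM under UV-B and 90.8 FPKM in white light, and was not called. Its relative GLK2 had 84.6 FPKM under UV-B and 85.8 FPKM in white light, and in dd 67.8 FPKM against 86.6 FPKM in Col-0 (p = 0.023, q = 0.999 in the authors' deposited table).

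Markers of leaf and root showed how the organs' transcripts lay in the same samples. None of 8 leaf stroma genes was called under UV-B, all 8 had higher values, and their sum was 26981 FPKM under UV-B and 22407 FPKM in white light. RCA, the activase of Rubisco, was furthest from 0 among them at a log2 change of 0.44 (q = 0.0697 in the authors' deposited table). Of 13 tested root markers, TIP2;3 and HAK5 fell under UV-B and 12 of 13 had lower values, beside 3.85% of all tested entries called, and the sum of the 15 listed was 215 FPKM under UV-B and 292 FPKM in white light. The tonoplast aquaporin gene TIP2;3 had 5.77 FPKM under UV-B against 18.6 FPKM in white light, and the potassium transporter gene HAK5 had 0.345 FPKM under UV-B against 2.77 FPKM in white light (q = 0.00249 for both in the authors' deposited table). In dd HAK5 rose (5.12 FPKM, against 2.79 FPKM in Col-0, q = 0.0138 in the authors' deposited table) and 11 of 13 root markers had lower values. The list's sum was 261 FPKM in dd and 294 FPKM in Col-0. IRT1, the largest part of that sum, also had a higher value, at 79.8 FPKM in dd against 64.0 FPKM in Col-0, without being called. At an unadjusted p under 0.05 in the authors' deposited table, 4 root markers were lower and 2 higher in dd, beside 3.71% of all tested entries. Under UV-B at that threshold, 5 leaf markers were higher and 6 root markers lower, with none the other way, beside 11.7% of all tested entries. No leaf or root marker was listed at 0 in any group. The part of organ proportions in the changes of the 34 genes was not tested.

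**Figure D4:**
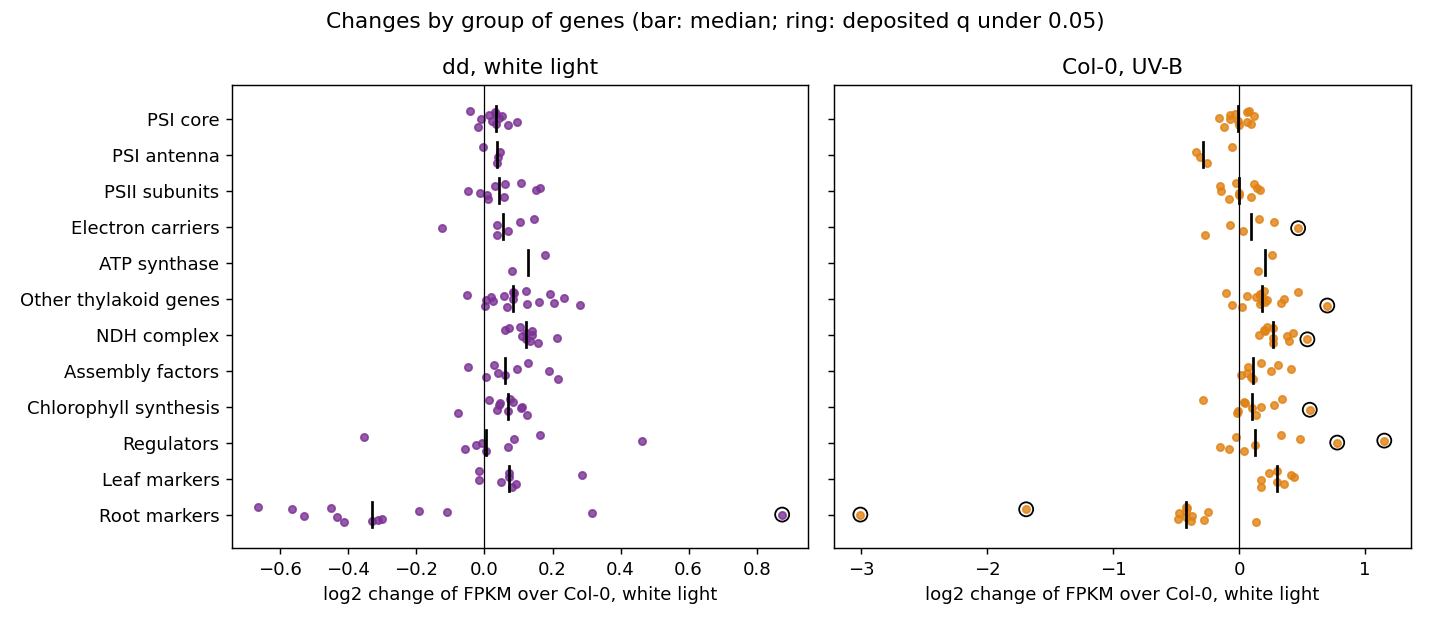
The dot plot of groups gives the log2 change of FPKM over Col-0 in white light for each tested gene of the 5 groups of photosynthetic subunits and 7 related lists, in dd (left) and in Col-0 under UV-B (right, wider axis). Bars are medians and rings mark q under 0.05; the antenna median lies at -0.28 under UV-B, while the leaf marker median lies at 0.30.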

How the data were processed

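RNA was measured in whole seedlings with a stranded mRNA kit, per the labels' protocols. The build was TAIR10, per the submitters' processing notes, which list HISAT2, Cufflinks, Trimmomatic and BSMAP without roles. The sources used here do not say how libraries were scaled or whether counting used strand. The authors deposited expression values pooled to 1 per group, read here as FPKM, normalized to transcript length and library total, because the columns have the layout of a Cuffdiff table, per the file headers. No column names the unit itself. The deposited p-values and q-values, and the test statistic (a score), are the authors' own. The q-values equal a Benjamini-Hochberg adjustment over all tested entries to within 5.28e-07.

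Log2 changes were computed as dd or UV-B over white-light Col-0, without a pseudocount, in Python 3.11.15 with numpy 2.4.6, pandas 2.3.3 and scipy 1.17.1. Each comparison uses the Col-0 values of its own table, which differ by a factor of 1.01. Implied errors are the change divided by the normal quantile of the authors' p, and 95% intervals assume normal error. Library depth is unknown. The 34 genes and the lists were chosen with earlier results of these data known. All 34 matched RefSeq TAIR10.1 by locus tag, and names follow it or its synonyms. Outside the 34, the genes named are those called in the 7 related lists. In a list with no call, it is the gene furthest from 0 with at least 5 FPKM. LHCA5, LHCA6, PSBS, PSB28, PETM, HY5, GNC, GLK1, GLK2 and IRT1 were named after their values were seen. So were the ferredoxin-linked genes of the closing section (GLU1, NIR1, SIR, FTRA1 and FD3). The abundance threshold, the Col-0 level of PETE1, was set then too. The computations were tested on simulated data with normal error, so that run cannot show whether normal error holds in these data. Alternatives were a q threshold of 0.01, a 1.5-fold minimum, adjustment over protein-coding genes, a minimum of 1 FPKM, a pseudocount of 1, median and equal-sum scaling, pairs left out and another total for shares. The lists of raised transposons hold none of these genes and were not used.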

Additional observations from a re-analysis of the deposited data

How the results depend on the processing

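No gene of the 34 was called in dd under any alternative run, which could not have come out otherwise. A stricter q, a fold minimum and the omission of pairs can only lower a count. An adjusted q is never below its p, and the smallest p there was 0.221 in the authors' deposited table. Under UV-B the call of FD2 was kept when q was adjusted over protein-coding genes (q = 0.0328) and with a minimum of 1 FPKM (q = 0.0342). Leaving out pairs could not affect it, since FD2 is in no pair and its deposited q was reused. The call was lost at a q threshold of 0.01 (0 of 34 called, q = 0.0344) and with a required 1.5-fold change (0 of 34 called). The q threshold of 0.01 also left 0 of the 1 related-list gene called in dd and 6 of 7 under UV-B. With errors from the authors' test statistic in place of p, chosen after the data were seen, 1 interval under UV-B lay off 0 in place of 3. That of FD2 remained, while those of LHCA1 and LHCA4 then included 0. Median changes lay between 0.03 and 0.04 in dd and between -0.03 and 0.00 under UV-B over the scalings, the pseudocount and the omission of pairs. Equal-sum scaling gave 25 of 34 genes higher in dd and 14 of 34 under UV-B. With all entries as the total, the share of summed FPKM was 9.54% in dd, 8.94% under UV-B and 9.32% in Col-0, as this total holds more entries. No paired analysis was possible because the values are pooled per group, and for the same reason no replicate could be left out.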

Other observations

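Genes linked to ferredoxin outside the chain, its users and other ferredoxin or ferredoxin-like genes, were examined after the value of FD2 had been seen. Of 12 such genes, GLU1 alone was called under UV-B and none in dd, and 11 of 12 had higher values under UV-B (median log2 change 0.16), against 7 of 12 in dd (median 0.03). Over all tested entries 3.85% were called and 10196 of 20390 were higher under UV-B, and 0.421% were called and 50.9% were higher in dd, so 1 call in 12 is not read as a result about the list. GLU1, the ferredoxin-dependent glutamate synthase of leaves, had 254 FPKM under UV-B and 176 FPKM in white light, a 1.44-fold rise (log2 change 0.53, q = 0.0159 in the authors' deposited table). The nitrite reductase gene NIR1 had 226 FPKM under UV-B and 192 FPKM in white light, and the sulfite reductase gene SIR had 160.3 FPKM under UV-B and 140.2 FPKM in white light, neither called in the authors' deposited table (q = 0.623 and 0.779). FTRA1, a variable subunit of ferredoxin-thioredoxin reductase, was the gene with a lower value, at 28.8 FPKM under UV-B and 33.3 FPKM in white light (q = 0.829 in the authors' deposited table). FD3, a ferredoxin of non-photosynthetic tissue, had 91.6 FPKM under UV-B and 83.96 FPKM in white light without being called.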
